A study of Rattus norvegicus with 9 samples.

Results

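Immature neutrophils with secondary granule genes were taken from single-cell libraries of the rat tibial osteotomy site by a rule on the UMIs (counted RNA molecules) of each cell. A barcode had to have at least 200 detected genes and at most 20% mitochondrial UMIs. Per 10000 UMIs, Ngp, Camp and Lcn2 together had to reach 100, the defensin genes RatNP-3b, Np4, Defa11 and Defa5 had to stay under 50, and the protease genes Mpo, Elane, Prtn3 and Ctsg had to stay under 20. The rule found 5840 members among the 114232 cells kept, or 5.11%, and 29.3% of the 19948 neutrophil-lineage cells, that is of members, defensin-rich precursors and mature neutrophils together. The levels of these 11 genes chose the members, so the members were chosen by measured values of these samples, which are given below as a description with no test.

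Neutrophils are made in bone marrow and load their granules in a fixed order. Primary granules, with myeloperoxidase, serine proteases and defensins, are filled first, at the promyelocyte stage. Secondary granules, with neutrophilic granule protein (Ngp), cathelicidin (Camp), lipocalin 2 (Lcn2), collagenase (Mmp8) and Cd177, follow in myelocytes and metamyelocytes, and gelatinase granules with Mmp9 come last. The transcription factor C/EBP epsilon (Cebpe) is required for the secondary granule step, after which the cell leaves the cycle and gains the receptors with which it is recruited.

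To show the regulatory sequence behind the genes that define these cells, the 250 bases before the start of Ngp, Camp, Lcn2 and Mmp8 are printed from RefSeq in the build GRCr8, on the coding strand. Capitals mark matches to the C/EBP-type motif TTGCNNAA on either strand. Ngp lies at chr8:119272355-119272604 on the + strand, Camp at chr8:118721999-118722248 on the - strand, Lcn2 at chr3:36081781-36082030 on the - strand and Mmp8 at chr8:13008640-13008889 on the + strand.
Ngp: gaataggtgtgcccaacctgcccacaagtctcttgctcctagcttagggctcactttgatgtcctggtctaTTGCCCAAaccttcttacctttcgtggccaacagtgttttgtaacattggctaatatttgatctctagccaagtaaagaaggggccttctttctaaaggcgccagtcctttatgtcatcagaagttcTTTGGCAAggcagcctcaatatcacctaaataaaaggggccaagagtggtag
Camp: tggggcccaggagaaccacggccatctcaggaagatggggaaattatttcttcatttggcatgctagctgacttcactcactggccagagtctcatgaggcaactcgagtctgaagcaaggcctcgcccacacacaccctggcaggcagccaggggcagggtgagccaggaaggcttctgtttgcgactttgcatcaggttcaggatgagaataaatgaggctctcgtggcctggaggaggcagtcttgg
Lcn2: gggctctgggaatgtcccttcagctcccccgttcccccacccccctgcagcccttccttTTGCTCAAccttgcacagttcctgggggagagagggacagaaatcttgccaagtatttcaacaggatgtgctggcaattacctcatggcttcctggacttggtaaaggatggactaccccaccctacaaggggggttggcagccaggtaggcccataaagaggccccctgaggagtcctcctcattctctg
Mmp8: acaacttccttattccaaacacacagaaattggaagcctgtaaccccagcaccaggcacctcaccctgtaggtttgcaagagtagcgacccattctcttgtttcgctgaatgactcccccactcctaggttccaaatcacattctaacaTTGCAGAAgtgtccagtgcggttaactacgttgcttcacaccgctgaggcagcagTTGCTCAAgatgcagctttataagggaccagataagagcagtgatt
Ngp held matches that began 179 and 52 bases before its start, Mmp8 at 101 and 46 bases and Lcn2 at 191 bases. No match was found in the window of Camp, nor in those of Cd177, Pglyrp1, Cebpe, Retnlg and Chit1, described below. Of 33469 rat promoter windows of the same length, 9.22% held the motif. A match is a description of the letters in the window.

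The sequenced series comprised 9 male Sprague-Dawley rats of 6 to 8 weeks with a circular osteotomy of 3 mm at the proximal tibia and a skin wound of 4 mm on the foot of the same side. The TO arm had the osteotomy alone and the TOE arm also received radial extracorporeal shock waves, pressure pulses from a handpiece, at the osteotomy on days 2 and 4 after surgery. The TOE libraries of day 2 were collected 4 or 24 h after the first session, so before the session of day 4. All groups compared here, controls included, carried both the osteotomy and the wound. Each condition had 1 library, named by arm, day of the session and hour of collection. TO_2d_0h is the baseline on day 2, TO_2d_4h, TO_4d_4h and TO_4d_24h are the other libraries of osteotomy alone, collected at the hours of the treated ones, and TOE_2d_4h, TOE_2d_24h, TOE_4d_4h and TOE_4d_24h those with shock waves. The labels also list TO_2d_24h, not analysed here. The series has 9 rats and 9 labelled samples, and the labels do not say which rats made up each library. With 1 library per condition, a single pair of libraries has no test, and 4 libraries were set against 4 by arm, by day, or by hour (4 h against 0 or 24 h), so that libraries of other conditions stood in as replicates and p-values measure the spread between these libraries.

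The libraries held 329 to 1360 members with 3011788 to 10579296 UMIs in all, a median of 6399 to 10397 UMIs and 1684 to 2407 genes per member, and a median mitochondrial share of 1.13 to 1.83%. Of 5833 member barcodes, 7 occurred as members in 2 or more libraries, or 0.120%. A Scrublet doublet score above 0.25 was given to 4.26 to 9.96% of members, against 2.27 to 4.24% of all cells kept, and these cells were kept in the main results. Among members it was 8.80 to 9.96% at 4 h and 4.26 to 6.40% at 0 or 24 h, without overlap. Median UMIs (8746 to 10397 against 6399 to 8309) and median genes (2238 to 2407 against 1684 to 2002) of members split by hour in the same way. B cell markers (10 genes) summed to 919.7 to 1407 TMM-adjusted CPM (defined below) in members and 12047 to 17026 in the B cells of the same libraries. TOE_4d_24h stood apart from the others in haemoglobin, NF-kB target and other genes and TO_2d_0h in Lcn2, as described below, and both are in every value unless stated.

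Levels below are TMM-adjusted CPM, the UMIs of a gene per 1000000 UMIs of all members of a library, after trimmed-mean (TMM) scaling between libraries. Since 3′ counts do not depend on transcript length, they are not divided by it. Ngp stood at 17655 in TO_2d_0h, 19027 in TO_4d_24h, 12717 in TOE_2d_24h and 17393 in TOE_4d_24h, and at 29313 in TO_2d_4h, 27930.4 in TO_4d_4h, 21357 in TOE_2d_4h and 33618 in TOE_4d_4h. The 4 libraries of 4 h were all above the other 4, as they were for 9.02% of all genes tested by hour, with 8.83% all below. Since Ngp and Camp chose the members, nothing is read from this. Camp went the other way, with 22337 to 27421 at 0 or 24 h and 14350.0 to 18518 at 4 h. Lcn2 stood at 261 in TO_2d_0h and at 3253 to 11851 in the other 7 libraries. The baseline library was also the lowest for Lcn2 in mature neutrophils (21.6 against 95.3 to 406), in defensin-rich precursors (77.5 against 384 to 2794) and in B cells (1.47 against 17.3 to 64.7), so the low value was not particular to the members. The sum of the 3 genes per cell had a library median between 336 and 582 per 10000 UMIs.

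Just inside the threshold on Ngp, Camp and Lcn2, 316 cells at 100 to 120 per 10000 had a median of 2203 for S100a8 and S100a9 together, and 422 cells just outside, at 80 to 100, had 2353. The remaining markers of the label were read against B cells, each cell thinned to 2000 UMIs and shallower cells left out. Pglyrp1, a bactericidal peptidoglycan recognition protein of granules, was detected in 96.9 to 99.2% of members, Cd177 in 76.3 to 87% and Mmp8 in 68.8 to 86.3% (before thinning 96.7 to 99.5%, 91.8 to 98.5% and 74.5 to 87.4%). In B cells, which should lack them, the thinned shares were 3.6 to 9.3%, 0.407 to 2.2% and 1.45 to 10.3%. Median depths before thinning were 6399 to 10397 UMIs in members and 4000.0 to 4667 in B cells. Each of the 3 was thus detected in most members of every library. A comparison with B cells cannot tell members from other neutrophils. Without TMM, mean CPM in members, mature neutrophils and defensin-rich precursors was 2589, 4435 and 79.1 for Mmp8. It was 3418, 2268 and 827 for Pglyrp1, and 929, 246 and 128 for Cd177. Ltf, the gene of lactoferrin and a secondary granule gene in other species, was near 0 at 0 to 0.643, while its relative Tf (transferrin) stood at 9038 to 16669.

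**Figure D1:**
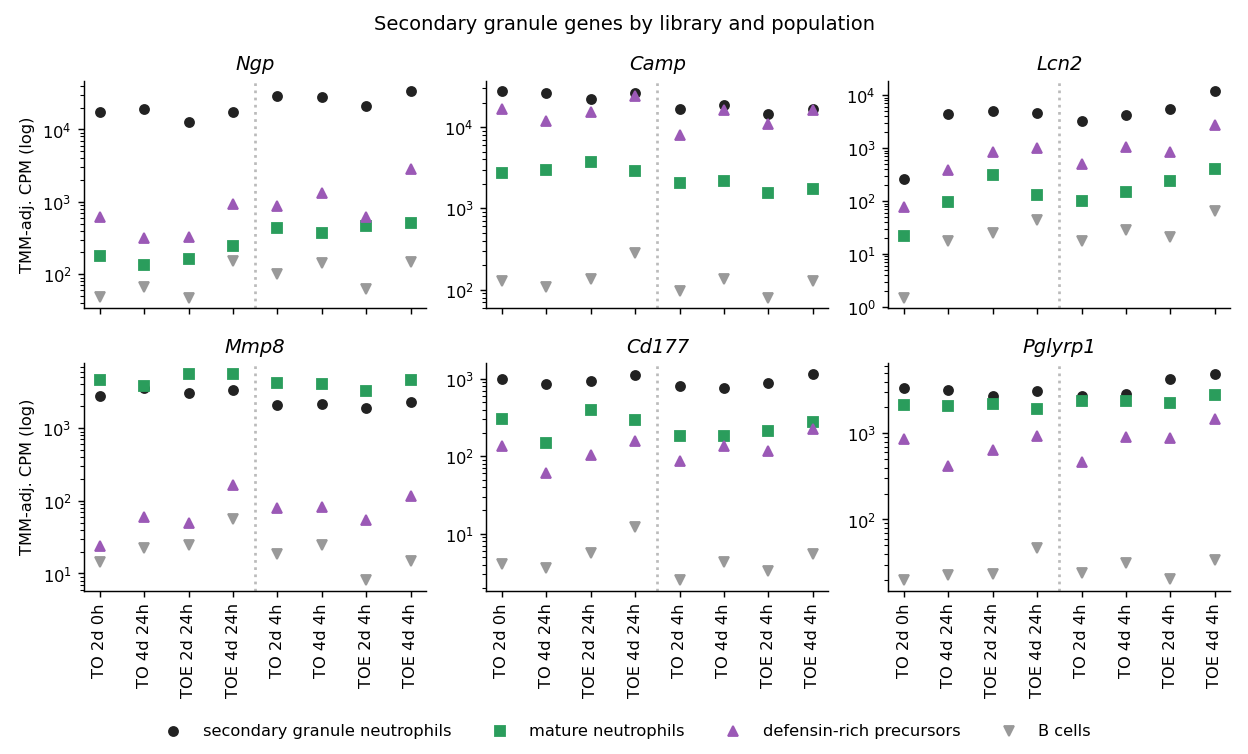
Level of 6 secondary granule genes (TMM-adjusted CPM, log axis) in each of the 8 libraries, 1 point per library and population; the dotted line separates libraries of 0 or 24 h (left) from those of 4 h (right). Members are highest for Ngp, Camp, Lcn2 and Cd177, Mmp8 is as high or higher in mature neutrophils, and Lcn2 is lowest in TO_2d_0h in every population.

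Members made up 2.27% of the cells kept in TO_2d_0h (329 of 14511 cells, 95% Clopper-Pearson interval 2.03 to 2.52%), 4.77% in TO_2d_4h (4.44 to 5.12%), 3.49% in TOE_2d_4h (3.22 to 3.78%) and 3.48% in TOE_2d_24h (3.19 to 3.80%). On day 4 they made up 7.07% in TO_4d_4h (6.63 to 7.53%), 5.20% in TO_4d_24h (4.84 to 5.58%), 5.00% in TOE_4d_4h (4.64 to 5.38%) and 11% in TOE_4d_24h (10.5 to 11.6%). Every library of day 4 was above every library of day 2, with means of 7.07% ± 2.80 (SD, n = 4) and 3.5% ± 1.02 (SD, n = 4). The log2 difference was 0.99 (exact permutation test, two-sided, p = 0.0286, the smallest that 4 against 4 libraries can give, and adjusted p = 0.0857 over the 3 comparisons), so it did not pass the correction. As a share of neutrophil-lineage cells the day difference had an exact permutation p of 0.0571. At a rule threshold of 200 the days overlapped, with 4.11% in TO_2d_4h and 3.86% in TO_4d_24h (exact permutation p = 0.0571). With 1 library left out the log2 difference ran from 0.75 to 1.15 and the exact permutation p from 0.0286 to 0.0857. Lcn2 counts towards the rule and was low in TO_2d_0h, the library with the lowest share. Without TO_2d_0h the log2 difference was 0.79 (exact permutation p = 0.0857), and the part of Lcn2 in the share was not tested. A share cannot tell more members from fewer cells of another kind, and counting intervals cover counting error only.

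**Figure D2:**
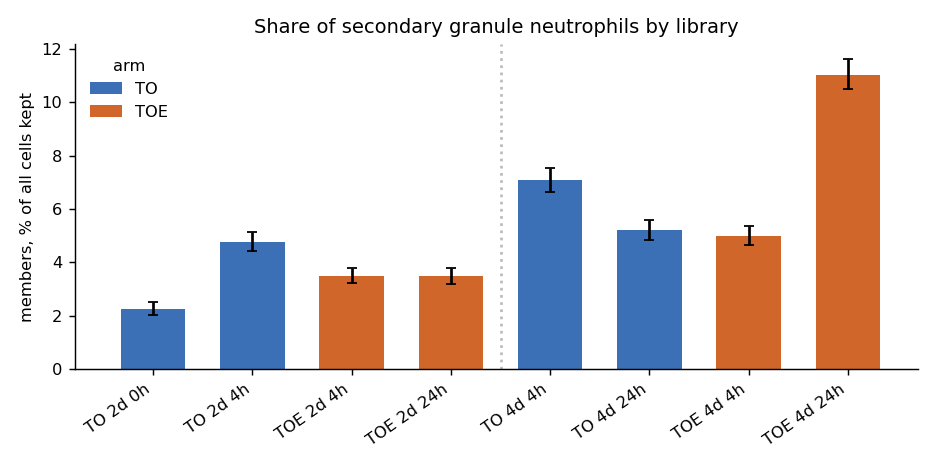
Members as a percentage of all cells kept, 1 bar per library, with exact 95% intervals for counting error; blue is TO, orange TOE, and the dotted line separates day 2 (left) from day 4 (right). All day 4 libraries, from 5.00 to 11%, are above all day 2 libraries, from 2.27 to 4.77%.

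By arm, the share was 5.75% ± 3.59 (SD, n = 4) with shock waves and 4.83% ± 1.98 (SD, n = 4) without (log2 difference 0.19, exact permutation p = 0.657), and by hour 5.08% ± 1.48 (SD, n = 4) at 4 h and 5.49% ± 3.88 (SD, n = 4) at 0 or 24 h (log2 difference 0.09, p = 0.971). The log2 difference is taken between means of log2 shares, so its sign by hour is opposite to that of the mean percentages. The arm difference turned negative without TO_2d_0h (-0.14) or without TOE_4d_24h (-0.18). The 3 matched pairs went in both directions. TOE had 0.731 times the share of TO at 2d 4h (95% counting interval 0.655 to 0.816), 0.708 times at 4d 4h (0.640 to 0.782) and 2.12 times at 4d 24h (1.94 to 2.33). Within the neutrophil lineage the same ratios were 1.62 (1.45 to 1.81), 1.12 (1.02 to 1.24) and 1.34 (1.23 to 1.47), all above 1. At 2d 4h, TO held 2477 defensin-rich precursors at a median of 2006 UMIs and TOE held 1030 at 5497 UMIs, which enter that denominator. Each ratio compares 2 libraries and has no test.

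Members were next placed between their neighbours in the lineage, as a description, since the rule used that contrast. Differences are mean log2 ratios of CPM over the 8 libraries with the lowest and highest library in brackets, 1 CPM added, the 11 rule genes left out. The genes named for both neighbouring stages, and for the split of the members that follows, were chosen after their values were seen. Against the defensin-rich precursors, 556 of 1855 genes with at least 100 CPM were higher in members in all 8 libraries and 813 were lower. The collagenase Mmp8 led, at 2723 against 99.1 CPM and a log2 ratio of 4.96 (4.08 to 6.53), followed by the gelatinase Mmp9 at 4.90 (4.25 to 6.63). Also higher were the formyl peptide receptor Fpr1 at 3.89 (3.26 to 4.70), the decoy receptor Il1r2 at 3.53 (2.90 to 4.50) and the chemokine receptor Ccr1 at 3.04 (2.04 to 4.36). Haptoglobin (Hp) of the granules stood at 1951 against 203 CPM.

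Lower in members was Ms4a3, a marker of granulocyte-monocyte progenitors, at 8.2 against 859.8 CPM and a log2 ratio of -6.59 (-7.34 to -5.82). The granule proteoglycan serglycin (Srgn) stood at 348 against 13518 CPM, the stem and progenitor marker Prom1 at a log2 ratio of -4.61 (-4.85 to -4.30) and Nkg7 at -4.44 (-5.24 to -3.88). The replication genes Pclaf and Dut were lower too, at -2.40 (-3.12 to -1.85) and -2.43 (-3.05 to -2.02). Cebpe was alike in both stages, at 346 against 328 CPM and higher in members in 5 of 8 libraries, and so was Cybb, the catalytic subunit of the NADPH oxidase, at 1079 against 1055 CPM.

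Against mature neutrophils, 364 of 1773 genes with at least 100 CPM were higher in members in all 8 libraries and 841 were lower. Cebpe was higher at 346 against 26.9 CPM (log2 3.71 (3.16 to 4.26)), and with it the proprotein convertase Pcsk6 at 4.62 (4.19 to 5.33), the chitinase Chit1 at 4.41 (4.14 to 4.72), the sulfhydryl oxidase Qsox1 at 3.77 (3.17 to 4.28), orosomucoid (Orm1) at 258 against 21.9 CPM and the activin subunit Inhba at 3.99 (3.09 to 4.96). Cybb stood at 1079 against 170.1 CPM. Lower in members were the chemokines Ccl6 at -6.20 (-7.80 to -5.41) and Cxcl2 at -4.03 (-5.19 to -3.37), the interferon-induced Ifit3 at -5.25 (-6.87 to -4.54), the receptor Hcar2 at -4.14 (-4.83 to -3.57), the inflammasome sensor Nlrp3 at -3.32 (-4.15 to -2.72) and the lectin receptor Clec4e at -3.68 (-4.69 to -2.84). Cd177 was above the mature level (2.03 (1.43 to 2.52)) and Mmp9 near it (-0.28 (-0.50 to 0.17)). The chemokine receptor Cxcr2 stood at 2.23 (1.53 to 2.84) against the precursors and -1.03 (-1.52 to -0.55) against mature cells. The sum of Csf3r, Cxcr2, Mmp9 and Il1r2 helped choose the mature cells, so nothing on stage is read from Mmp9 and Cxcr2 against them.

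**Figure D3:**
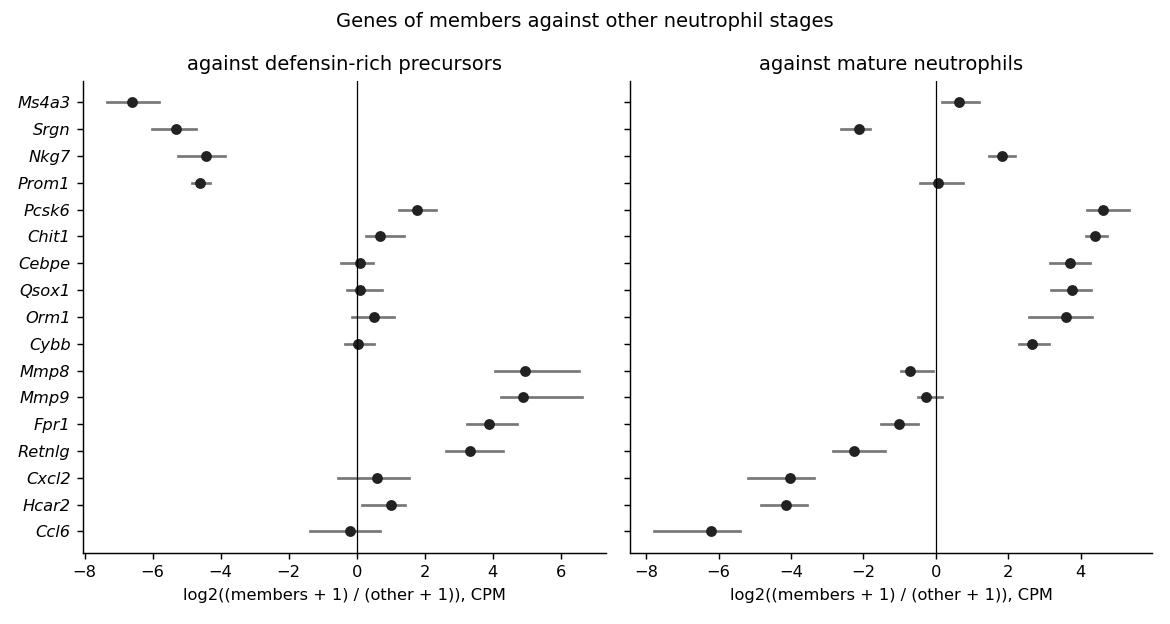
Mean log2 ratio of members over defensin-rich precursors (left) and over mature neutrophils (right) for genes of the 3 stages; points are means over 8 libraries, lines run from the lowest to the highest library, and 0 marks equal CPM. Ms4a3 and Srgn are far below 0 on the left, Mmp8 and Mmp9 far above, and on the right Pcsk6, Chit1, Qsox1 and Cebpe are far above 0, with Ccl6, Hcar2 and Cxcl2 far below.

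The members were also split in each library into 3 equal parts by Ngp, Camp and Lcn2 together, the genes of the rule, so that the bottom part lies next to its threshold. The top part is set against the bottom part as a description with no test. The top part had more Qsox1 (315 against 82.8 CPM, log2 2.20), Pcsk6 (2.03), Chit1 (2.02), Orm1 (1.56) and Cebpe (493 against 169.8 CPM, 1.54). Cd177 (0.57), Pglyrp1 (0.58), Tf (0.81) and the alarmin pair S100a8 (0.51) and S100a9 (0.52) went the same way.

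The bottom part had more of the resistin-like Retnlg (721 against 4755 CPM in top and bottom, log2 -2.68), the stefin Stfa2l3 (-3.69), Nlrp3 (-2.73) and Mmp9 (-1.34). Also higher there were the proliferation antigen Mki67 (-1.51), the linker histone H1f5 (-2.93), the histone methyltransferase Ezh2 (-2.10) and Sox4 (-2.22). Mmp8 was lower in the top part, with 2094 against 3602 CPM (log2 -0.77). All genes named here had the given direction in 8 of 8 libraries, which was frequent in this split: of 2701 genes with a mean of at least 50 CPM, 308 were higher and 972 lower in the top part in all 8. Cxcr2 was higher in the top part in 3 of 8.

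Cycling was read as the share of members with a UMI of Mki67 or Top2a, genes of dividing cells, after thinning to 2000 UMIs. It was 16.9% in TO_2d_0h, 12.1% in TO_4d_24h, 12.6% in TOE_2d_24h, 15% in TOE_4d_24h, and 16.8% in TO_2d_4h, 21.2% in TO_4d_4h, 23.7% in TOE_2d_4h, 17.6% in TOE_4d_4h. In defensin-rich precursors it was 39.3 to 67.4% and in mature neutrophils 7.44 to 16%, so members lay nearer the mature cells. B cells of the same libraries had 16 to 27.7%. By the order given above mature neutrophils have left the cycle, and the range of members, 12.1 to 23.7%, overlapped theirs. The share of members is thus no direct count of dividing cells. Before thinning the members had 29.6 to 49.4%. Between hours the mean was 19.8% ± 3.22 (SD, n = 4) at 4 h and 14.2% ± 2.26 (SD, n = 4) at 0 or 24 h (exact permutation test, p = 0.0571, adjusted p = 0.171). Thinned to 1000 UMIs the exact permutation test gave p = 0.0286 and adjusted p = 0.0857. By arm the exact p was 0.857 and by day 0.771. Cebpe was detected in 35.5 to 48.5% of members and 2.07 to 7.26% of mature neutrophils. Cxcr2, which helped choose the mature cells, was detected in 11.5 to 25.3% and 18.1 to 37.1%.

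The effect of shock waves was the question of the arm comparison, TOE minus TO, fitted with edgeR across 12621 genes with day and hour as covariates. The hour term sets 4 h against 0 or 24 h, so TO_2d_0h and TOE_2d_24h share a level though they are not matched in time. No gene passed an adjusted p of 0.05 (0% called), with 432 genes at an unadjusted p under 0.05 (3.42%) and 2 genes in DESeq2. The markers had log2 differences of -0.01 ± 0.11 (SE) for Mmp8, 0.27 ± 0.14 (SE) for Cd177 and 0.26 ± 0.20 (SE) for Pglyrp1, at adjusted p of 0.999, 0.956 and 0.956. The fit has 4 residual degrees of freedom. None of 14 tested secondary granule genes, 15 gelatinase granule and secretory vesicle genes, 25 receptors or 22 cytokine genes was called. Their median log2 differences were 0.07, 0.06, 0.01 and -0.15, beside 0.01 over all genes tested.

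No gene of any other list was called by arm either. Over all genes tested, rule genes left out, 6491 of 12610 had a positive difference by arm. Of the 15 circadian clock genes 2 had a positive difference, with a median log2 of -0.23, and of the 88 ribosomal protein genes 4, with -0.14. All 4 dendritic cell markers tested were lower in TOE (-0.39) and all 4 T or NK cell markers tested were higher (0.29). The full T or NK cell list, 9 genes, was low in every library and its sum did not separate the arms. Its smallest sum, 6.73 TMM-adjusted CPM (TO_2d_4h), and its largest, 29.4 (TO_4d_24h), both came from osteotomy alone. All 10 erythroid markers tested were lower in TOE, with a median of -0.75, and TOE_4d_24h was the library with almost none, as given below. Of 29 immediate-early genes 8 were positive (-0.17), of 19 NF-kB feedback genes 5 (-0.15) and of 44 cell cycle genes 28 (0.07). TOE_4d_24h was also the lowest library in the sums of the NF-kB feedback, immediate-early and clock lists and of the dendritic cell markers. For NF-kB feedback it stood at 984, with 2209 in TOE_2d_4h, 2592 in TOE_2d_24h, 2607 in TOE_4d_4h and 1853 to 2576 in TO. The clock sum was 183 there and highest, at 496, in TOE_2d_24h. These medians are descriptions without a test, and the part of TOE_4d_24h in them was not tested.

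The 2 genes called by DESeq2 were Retn and Alpl, named after their values were seen. Retn encodes resistin, a secreted cysteine-rich protein. It stood at 98.6 in TO_2d_0h, 109 in TO_2d_4h, 79.3 in TO_4d_4h and 77.7 in TO_4d_24h, and with shock waves at 196 in TOE_2d_4h, 381 in TOE_2d_24h, 159 in TOE_4d_4h and 549 in TOE_4d_24h. All 4 TOE libraries were above all 4 TO libraries, as they were for 0.935% of all genes tested (0.594% were lower in all 4). With plain CPM these shares were 0.499% and 0.697%. The log2 difference was 1.66 ± 0.33 (SE) with an adjusted p of 0.956 in edgeR and 0.000545 in DESeq2. In mature neutrophils Retn stood at 1.3 to 2.59 in TO and 5.96 to 94.9 in TOE, and in defensin-rich precursors at 135 to 254 and 251 to 1096. Alpl, tissue-nonspecific alkaline phosphatase, stood at 22.3 to 43.8 in TO, at 254 in TOE_2d_4h and 233 in TOE_4d_4h, and at 58.9 and 41 in the TOE libraries of 24 h, so the arms overlapped (edgeR adjusted p = 0.956, DESeq2 adjusted p = 0.0119).

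A few other values were high in the same pair of libraries, TOE at 4 h. The protease inhibitor Serpinb1a stood at 5506 in TOE_2d_4h and 4998 in TOE_4d_4h, and at 1308 to 2459 in the other 6 libraries. Pglyrp1 stood at 4335 and 4933, against 2691 to 3359.7. The antiviral gene Oas1a stood at 149 and 163, against 2.1 to 43.6, and was the 1 gene called for arm when TOE_4d_24h was left out (log2 2.27, edgeR adjusted p = 0.000851). Serpinb1a and Oas1a were named after their values were seen. The interaction of arm and hour was not tested.

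Between day 4 and day 2, edgeR called no gene (0%), with 268 at an unadjusted p under 0.05 (2.12%), and DESeq2 called 5. These were the chaperone Hsp90aa1 (log2 1.21), the immediate-early gene Egr1 (0.86), the basophil and mast cell proteases Mcpt8 (1.90) and Prss34 (1.93), and LOC103692723 (-5.25), named after their values were seen. Hsp90aa1 stood at 513 to 1699 on day 2 and 1386 to 3199 on day 4, with overlap. The related Hspa8 stood at 418 to 569 on day 2 and 679 to 1001 on day 4, without overlap, as in 0.57% of all genes tested (log2 0.77 ± 0.17 (SE), adjusted p = 0.999). Of the 21 heat shock genes tested, 17 had a positive difference and none was called, with a median log2 of 0.37 beside 0.01 over all genes. Over all genes tested, rule genes left out, 6440 of 12610 had a positive difference by day.

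Most differences lay between hours. At 4 h, 319 genes were higher and 425 lower than at 0 or 24 h, or 744 of 12621 (5.89% called, 2.53% higher and 3.37% lower; edgeR, Benjamini-Hochberg adjusted p under 0.05). The count rests on single libraries: without 1 library it ran from 50 (without TO_4d_4h) to 1733 (without TOE_4d_24h), and was 105 without TO_2d_0h, 154 without TO_2d_4h, 197 without TO_4d_24h, 85 without TOE_2d_4h, 469 without TOE_2d_24h and 238 without TOE_4d_4h. In each of these fits 727 of the 744 genes had the same direction, the other 17 were not tested in some, and 48 were called in all 8. The naming rule and the genes chosen later took 63 of the called genes, 7 of them unnamed loci (LOC and RGD) and not all given below. Of the 63, 25 kept the call under every alternative tried and 38 lost it without at least 1 library, and no direction turned. Collection hour and the preparation of the libraries cannot be told apart. Depth and doublet scores of members also split by hour, as given above. With members of a Scrublet score above 0.25 left out, 602 genes were called, and the part of depth was not tested.

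Among the granule genes, Mmp8 was lower at 4 h. It stood at 2773 in TO_2d_0h, 3544 in TO_4d_24h, 3022 in TOE_2d_24h and 3316 in TOE_4d_24h, and at 2087 in TO_2d_4h, 2138 in TO_4d_4h, 1882 in TOE_2d_4h and 2288 in TOE_4d_4h, without overlap between hours (log2 -0.59 ± 0.11 (SE), adjusted p = 0.030). The call was kept only without TOE_4d_24h and lost when any other library was left out, with log2 differences from -0.64 to -0.56, and it was lost at a rule threshold of 200 (-0.51). Retnlg, named after its values were seen, stood at 2887 to 5014 at 0 or 24 h and 693 to 1258 at 4 h (log2 -2.04 ± 0.22 (SE), adjusted p = 0.0046), and kept its call with 8 of 8 libraries left out. Orm1, an acute-phase carrier protein stored in these granules, was higher at 4 h, with 281 to 314 against 144 to 214 (log2 0.75 ± 0.16 (SE), adjusted p = 0.0405). Cyba, the other membrane subunit of the NADPH oxidase, was lower (log2 -0.55 ± 0.12 (SE), adjusted p = 0.043). Orm1 and Cyba also kept the call only without TOE_4d_24h. Cd177 stood at 977 in TO_2d_0h, 848 in TO_4d_24h, 929.6 in TOE_2d_24h and 1104 in TOE_4d_24h, and at 805 in TO_2d_4h, 756 in TO_4d_4h, 886 in TOE_2d_4h and 1158 in TOE_4d_4h, with overlap between the hours. Cd177 (-0.11 ± 0.14 (SE)) and Pglyrp1 (0.23 ± 0.20 (SE)) did not pass, at adjusted p of 0.696 and 0.541. Of the 14 secondary granule genes tested, 1 was higher and 2 lower, with a median log2 of -0.06, and none of 15 gelatinase granule or 11 primary granule genes was called, beside 5.88% of all genes.

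The alarmins S100a8 and S100a9, the most abundant transcripts of these cells, were lower at 4 h. S100a8 stood at 89901 to 132145 at 0 or 24 h and 40192 to 59578 at 4 h (log2 -1.15 ± 0.17 (SE), adjusted p = 0.0127), and S100a9 at 200947 to 228407 and 124446 to 149992 (-0.67 ± 0.10 (SE), 0.0155). S100a11 was lower too (-0.63), which made 3 of 11 genes of this list (27.3%, beside 3.37% of all genes lower), with none higher. The call was kept with 4 of 8 libraries left out in turn for S100a8 and 2 of 8 each for S100a9 and S100a11. The scale matters for such counts: with plain CPM, 2429 genes were higher without overlap at 4 h and 531 lower, or 19.2% and 4.21%, and with TMM 1139 and 1114, or 9.02% and 8.83%.

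The transcription factors Klf5 (82.1 to 107 against 33.6 to 50.1, log2 1.19 ± 0.15 (SE), adjusted p = 0.00788), Spi1 (PU.1; log2 0.60, adjusted p = 0.043) and Cebpa (log2 0.93, adjusted p = 0.0233) rose at 4 h and were the 3 called of 20 listed (15.0%, beside 5.88% of all genes tested), and none was lower. The receptors C5ar1 for the complement fragment C5a (log2 0.65, adjusted p = 0.0491) and Tnfrsf1b for TNF (log2 0.98, adjusted p = 0.0408) were 2 of 25 (8.00%). The cytokine Il6 was called at a low level (7.17 to 10.6 against 0.668 to 5.75), as was the interferon-induced Ifit2 (log2 0.75). Klf5 kept its call with 7 of 8 libraries left out, Cebpa with 3 of 8, and Spi1, C5ar1 and Tnfrsf1b with 1 of 8 each. Of 31 hypoxia and glycolysis genes, the enzymes Pkm (898 to 1144 against 589.7 to 645, log2 0.68) and Pgam1 (0.56) were higher and Aldoa (-3.44, at most 13) was lower. Aldoa kept its call with 8 of 8 libraries left out, Il6 and Ifit2 with 2 of 8 each, and Pkm and Pgam1 with 1 of 8 each. Of 29 immediate-early genes Jund was lower (-1.10, a call kept with 1 of 8) and none higher. None of 19 NF-kB feedback genes, 15 clock genes or 20 survival genes was called.

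Hspa1b, an inducible Hsp70, stood at 14.4 in TO_2d_0h, 69.7 in TO_4d_24h, 77.4 in TOE_2d_24h and 25.7 in TOE_4d_24h, and at 154 in TO_2d_4h, 319 in TO_4d_4h, 242 in TOE_2d_4h and 342 in TOE_4d_4h (log2 2.45 ± 0.50 (SE), adjusted p = 0.0336). All libraries of 4 h were above the others, and the call was kept with 2 of 8 libraries left out. Hsph1 (log2 1.72), Stip1 (1.39) and Hsp90aa1 (1.00) were also called, so 5 of 21 heat shock genes tested were higher (23.8%, beside 2.53% of all genes higher) and none lower, with a median log2 of 0.73. Stip1 kept its call with 7 of 8, Hsph1 with 6 of 8 and Hsp90aa1 with 2 of 8. Of 44 cell cycle genes, 5 were higher (11.4%, beside the same 2.53%) and none lower, among them Mki67 (148 to 188 against 82.6 to 101, log2 0.86 ± 0.13 (SE)), Pcna (1.41), Mcm4 (0.97) and the tubulin Tuba1b (1.34 ± 0.13 (SE)), with a median log2 of 0.42 beside -0.00 over all genes. Tuba1b kept its call with 8 of 8 libraries left out, Mki67 with 4 of 8, Pcna with 3 of 8 and Mcm4 with 2 of 8.

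Ribosomal protein and respiratory chain genes were called in both directions. Of 88 ribosomal protein genes, 7 were higher and 21 lower at 4 h (31.8%), and of 92 nuclear respiratory chain genes 2 were higher and 32 lower (37.0%), beside 5.88% of all genes tested. Rpl4 (235 to 269 against 71.6 to 101, log2 1.53 ± 0.15 (SE)) and Rpl21 (1.45 ± 0.15 (SE)) rose, whereas Rps29 (348 to 498 against 1237 to 1448, -1.70 ± 0.16 (SE)) and Rpl38 (-1.55 ± 0.15 (SE)) fell. Among the ATP synthase and cytochrome oxidase genes Atp5me (-1.69), Atp5mk (-1.51), Atp5f1e (-1.37) and Cox7a2 (-1.02) fell. These kept their calls with each library left out, except Cox7a2 with 5 of 8. Of the same lists, Rpl41 (-0.95) and Cox6c (-0.88) also fell, with calls kept in 2 of 8 and 3 of 8. Short genes were frequent among those lower at 4 h: their median genomic span was 6.64 kb, with 41.4% under 5 kb, against 17.8 kb for those higher and 23.8 kb and 12.2% for all genes tested (spans found for 83.5% or more of each set). Their part in the result was not tested. Ribosomal protein and histone genes have near-identical copies in the genome, so how their reads were split is uncertain.

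A further set of genes rose with large effects. Cd59b, an inhibitor of the complement membrane attack complex, stood at 29.2 in TO_2d_0h, 39.2 in TO_4d_24h, 43.6 in TOE_2d_24h and 44.9 in TOE_4d_24h, and at 249 in TO_2d_4h, 206 in TO_4d_4h, 259 in TOE_2d_4h and 243 in TOE_4d_4h (log2 2.61 ± 0.16 (SE), adjusted p = 0.000312). Scamp1, a secretory carrier membrane protein, stood at 13.5 to 25.1 and 47.8 to 93.8 (1.97 ± 0.27 (SE), 0.00997), and Rtp3, a receptor transporter, at 6.7 to 28 and 36.9 to 60.8 (1.84 ± 0.30 (SE), 0.0172). The signalling regulator Rgs2 (1.49 ± 0.30 (SE)), the RNA-binding factor Arid5a (1.68 ± 0.33 (SE)), Fam111a (2.47 ± 0.50 (SE)) and Hmgb2l1 (2.72 ± 0.60 (SE)) were further rises named by the rule. Cd59b kept its call with 8 of 8 libraries left out, Scamp1 with 6 of 8, Rtp3 with 2 of 8, Rgs2 and Fam111a with 3 of 8 each, Arid5a with 2 of 8 and Hmgb2l1 with 1 of 8.

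Some genes of other cell types moved with the hour too. Osteocalcin (Bglap), of osteoblasts, stood at 106 to 582 at 0 or 24 h and 8.94 to 19.5 at 4 h (log2 -3.84 ± 0.57 (SE)). The mast cell and basophil proteases Mcpt8 (-3.21 ± 0.44 (SE)) and Prss34 (-7.99 ± 0.47 (SE)) and the related Prss29 (-8.07 ± 0.48 (SE)) were lower, with Prss34 at 0 in TO_2d_4h and TOE_4d_4h and Prss29 at 0 in TOE_2d_4h, so that their fitted ratios are no bounds. The mast cell or basophil markers, 7 genes of which 2 of 4 tested were lower and none higher, summed to 37.4 to 225 and 5.52 to 15.7. The 12 mesenchymal markers summed to 398 to 2145 and 129 to 542, and 1 of 9 tested was lower. Over all genes tested, 3.37% were lower at 4 h and 2.53% higher. The 7 eosinophil markers summed to 1104 in TOE_2d_24h, with Prg2 at 916, and to 11.3 to 116 elsewhere. Their part in the hour result was not tested. No marker of B cells, erythroid cells, monocytes, macrophages, T or NK cells, eosinophils, dendritic cells or platelets was called.

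**Figure D4:**
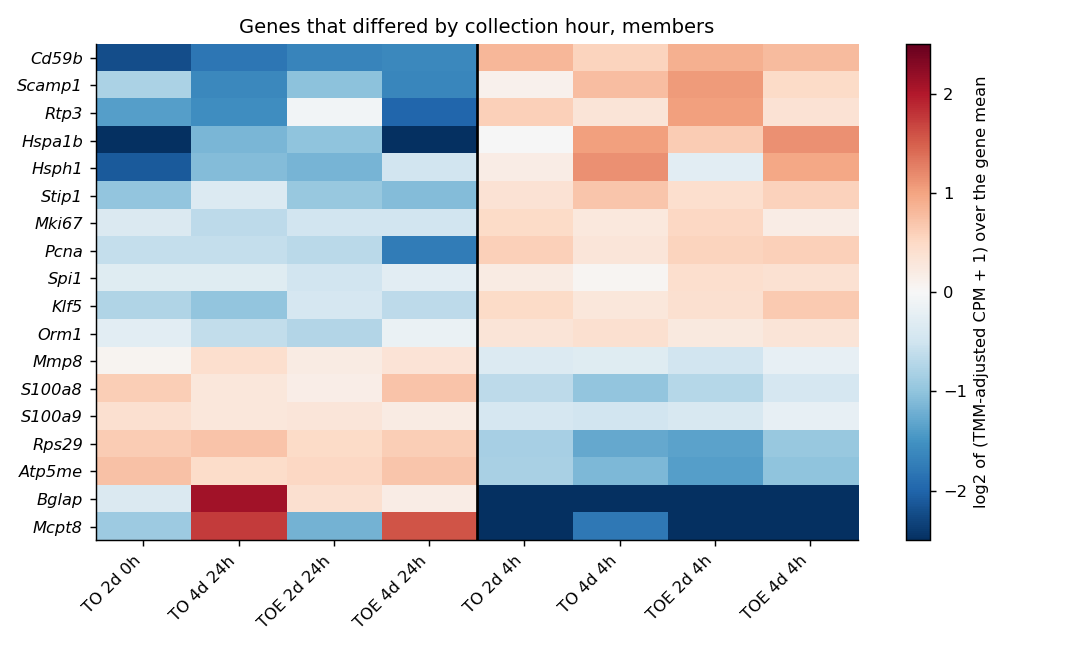
Level of 18 genes in members relative to the mean of each gene over the libraries (log2 of TMM-adjusted CPM + 1, colours cut at -2.5 and 2.5), with libraries of 0 or 24 h left of the line and those of 4 h right of it. Genes from Cd59b to Orm1 are higher at 4 h and genes from Mmp8 to Mcpt8 lower, and Bglap is highest in TO_4d_24h.

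The same fit was made in the other populations of the same libraries. By hour edgeR called 244 of 11958 genes in mature neutrophils (2.04%), 631 of 13338 in defensin-rich precursors (4.73%) and 2840 of 17167 in B cells (16.5%). By arm it called 0 in each, with 423, 355 and 417 genes at an unadjusted p under 0.05, and by day 0, with 314, 708 and 314 (DESeq2 was not run there). B cells had hour differences of -1.41 for Rps29, -1.54 for Atp5me, 1.35 for Rpl4, -4.33 for Bglap, 1.42 for Rgs2 and 1.24 for Klf5. The difference of the hour effect itself was then tested, with library as a block, an analysis chosen after the data were seen. Between members and mature neutrophils it was called for 5 of 11633 genes (0.043%), between members and defensin-rich precursors for 3 of 12220 (0.0245%), and between members and B cells for 441 of 12284 (3.59%). With genes that passed the count filter in the joint table the numbers were 8, 5 and 590. The arm effect differed for 1 gene, Igfbp7, named after its values were seen, between members and defensin-rich precursors (0.00818% of 12220).

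Cd59b, Scamp1 and Rtp3 were among the genes that differed from B cells. The difference for Cd59b was 2.51 ± 0.20 (SE), adjusted p = 0.000995, and in B cells it stood at 3.91 to 6.11 in all libraries. For Scamp1 the difference was 1.87 ± 0.30 (SE), adjusted p = 0.0178, and for Rtp3 1.86 ± 0.32 (SE), adjusted p = 0.0213, with B cell levels of 6.74 to 12.9 and 0.151 to 0.781. Cebpa (1.22 ± 0.27 (SE), adjusted p = 0.0404) and Pcna (0.72 ± 0.13 (SE), adjusted p = 0.0258) differed as well. In mature neutrophils Cd59b stood at 46.3 to 87.3 at 0 or 24 h and 195 to 287 at 4 h, without overlap, and Rtp3 at 6.05 to 19.8 and 44.9 to 72.8.

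The 5 genes whose hour effect differed from mature neutrophils all had a lower hour effect in members. Ptgs2, the inducible cyclooxygenase, had a difference of -1.54 ± 0.14 (SE), adjusted p = 0.000395. It stood at 36 to 126 and 57.9 to 90.5 in members and at 41.5 to 163 and 189 to 377 in mature neutrophils. Egr1 (-1.30 ± 0.18 (SE), adjusted p = 0.0282), the phosphatase Dusp1 (-0.97 ± 0.14 (SE), adjusted p = 0.0363), the protease receptor F2rl2 (-1.15 ± 0.16 (SE), adjusted p = 0.0282) and Phlda1 (-1.15 ± 0.18 (SE), adjusted p = 0.040) followed. These 5 were named after their values were seen.

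TOE_4d_24h, the library with the highest share of members, stood apart from the other 7 in several genes and lists. The chemokine Cxcl2 stood at 3.4 there and at 97.9 to 299.7 elsewhere. Il1b stood at 11.2 against 67.2 to 282, and a thinned Il1b UMI was found in 1.09% of its members against 8.15 to 26.2%. B cells had 0.267 to 3.64%. The NF-kB inhibitor Nfkbia stood at 144 against 547 to 1208, the transcription factor Cebpb at 93.3 against 361 to 704, and the survival factor Mcl1 at 124 against 331 to 415. The sums of several lists were lowest there too, at 984 against 1853 to 2607 for 20 NF-kB feedback genes, 364 against 826 to 1707 for 23 cytokine genes and 1259.5 against 2354 to 3859 for 20 survival genes. The same held for 16 primary granule genes (2355 against 3063 to 7065), 20 granulocyte transcription factors (2339 against 2663 to 3438), 27 receptors (2498 against 2790.4 to 3256), 19 clock genes (183 against 238 to 496), 33 hypoxia and glycolysis genes (5312 against 6434 to 8509) and 30 immediate-early genes (4369.9 against 4464 to 8621). It held as well for the 10 monocyte, 8 macrophage and 6 dendritic cell markers (127 against 129 to 252, 9.6 against 14 to 238 and 58 against 77.7 to 113).

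The low values were not particular to the members. In TOE_4d_24h, Nfkbia stood at 305 in mature neutrophils against 1645 to 4755 in the other libraries, and at 119 in B cells against 545 to 885. Erythroid markers moved with them: Hba-a1 stood at 4.7 in members of TOE_4d_24h and at 719.8 to 1481 elsewhere, and in B cells at 5.72 against 393 to 1060.4. The 12 erythroid markers summed to 21.8 in members against 1441 to 2831. The granule genes Mmp8 at 3316, Cd177 at 1104 and Pglyrp1 at 3068 were within the range of the other libraries. TO_4d_24h, of the same day and hour without shock waves, stood at 123 for Cxcl2, 742 for Nfkbia and 945 for Hba-a1. With 1 library of this condition, shock waves at this time and the library itself cannot be told apart.

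**Figure D5:**
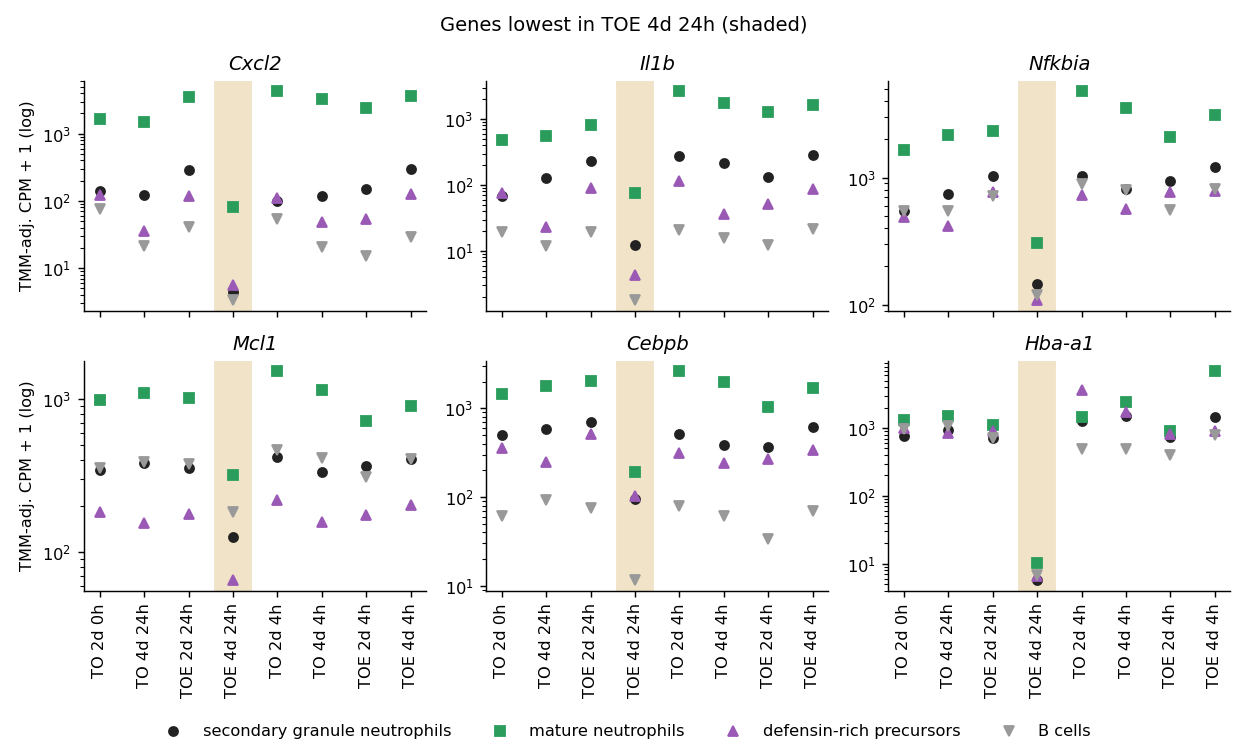
Level of 6 genes (TMM-adjusted CPM + 1, log axis) in each library and population, with TOE_4d_24h shaded. In the shaded library all 6 genes are at their lowest in members, mature neutrophils, defensin-rich precursors and B cells.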

How the data were processed

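The members and gene lists were chosen with earlier results of these data known. The deposited values are raw counts of UMIs for each gene in each cell, which the authors made from 10x 3′ libraries without normalization. Of 9 labelled samples, 8 were analysed here. The submitters' processing notes name Cell Ranger 9.0.0, Seurat and R 4.0.3, and the builds GRCh38 and mRatBN7.2 without a role for each. Cells were filtered and classed by the rule given above. Mature neutrophils, defensin-rich precursors and B cells were classed by marker sums. UMIs were summed over the members of each library (3011788 to 10579296 per library, which limits the precision of low genes) and fitted with edgeR 4.0.16 in R 4.3.3, by quasi-likelihood with terms for arm, day and hour, TMM scaling, filterByExpr and Benjamini-Hochberg adjustment. This leaves 4 residual degrees of freedom. Shares were compared by exact permutation of libraries (70 arrangements) with scipy 1.17.1. Doublets were scored with Scrublet in scanpy 1.11.5 and kept in the main results, since its automatic threshold marked 0 or 1 cells in several libraries. The scripts were tested on simulated data.

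Named were the rule genes and markers, for each comparison up to 12 rises and 12 falls with an adjusted p under 0.05, at least 20 CPM and no overlap, and for each list up to 4 called and the 3 most abundant genes. Of the 63 called hour genes taken by this rule or chosen later, 7 are unnamed loci (LOC and RGD) and are not described, and 1 such locus is named among the 5 genes called by DESeq2 for day. Further genes are said to be chosen after their values were seen. The design named CPM as the scale of levels, and TMM-adjusted CPM was chosen after seeing the values. Alternatives were DESeq2 1.42.0, its size factors in edgeR, no count filter, other rule and cell thresholds, doublets or members with B cell UMIs left out, rule genes left out of the counts, other denominators, other thinning, matched pairs as a block, and each library left out.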

Additional observations from a re-analysis of the deposited data

Results flagged for a closer look

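Of 119 values tested over the 8 libraries, rule genes and lists that hold them left out, 17 had a lowest or highest library farther from the rest than Dixon's 95% critical value allows, where chance gives about 1 in 20. All 17 were low in TOE_4d_24h. The 119 values are not independent, since list sums were tested beside their own genes, so 17 is no count of separate departures to set against that rate. There Hba-a1 stood at 4.70, Hba-a2 at 3.4, Hbb-bs at 3.4 and the erythroid sum at 21.8 TMM-adjusted CPM. Of other genes, Il1b stood at 11.2, Cxcl2 at 3.4, Ccl3 at 12.2, Nfkbia at 144, Cebpb at 93.3, Mcl1 at 124, Cflar at 110.2, Slc2a3 at 317 and the receptor Xcr1 at 1.4. The sums were 984 for NF-kB feedback, 364 for cytokines and chemokines and 1259.5 for cell survival, and Il1b was detected in 1.09% of the thinned members.

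The hour effect differed between members and mature neutrophils of the same libraries for 5 of 11633 genes (edgeR, log2 difference of the effects, library as a block). These were Ptgs2 (-1.54, adjusted p = 0.000395), Egr1 (-1.30, adjusted p = 0.0282), F2rl2 (-1.15, adjusted p = 0.0282), Dusp1 (-0.97, adjusted p = 0.0363) and Phlda1 (-1.15, adjusted p = 0.0400). Against defensin-rich precursors it differed for the protease Mcpt9 (-2.24, adjusted p = 0.0101), the histone H2bc18 (1.47, adjusted p = 0.0246) and the metalloproteinase inhibitor Timp3 (-6.43, adjusted p = 0.0402), and against B cells for 441 genes, 211 with a higher and 230 with a lower effect in members. The 211 had a median genomic span of 8.39 kb and the 230 one of 98.4 kb. The arm effect differed from defensin-rich precursors for Igfbp7 (-2.82, adjusted p = 0.0245). Mesenchymal markers were uneven in these precursors, with sums without TMM of 3242 CPM in TO_2d_4h and 4081 in TOE_2d_24h, against 214 to 852 in the other libraries. What causes these differences was not tested.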

How the results depend on the processing

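Genes called by hour numbered 602 to 844 under the other edgeR settings and 1020 with DESeq2, beside 744, and 50 to 1733 with 1 library left out. For arm, 0 became 2 with DESeq2, and 0 to 1 with a library left out. For day, 0 became 5 with DESeq2 and 1 (Serpinb2, log2 -6.35, at most 15.0 CPM) at a rule threshold of 200. With plain CPM, genes without overlap numbered 63 above and 88 below by arm, 2429 above and 531 below by hour, beside 118, 75, 1139 and 1114. The log2 share difference by hour turned to -0.17 among cells that are not B cells and -0.085 at a threshold of 50. With 1 library left out it ran from -0.25 to 0.51 by hour and from -0.18 to 0.41 by arm, and cycling differences from -1.69 to 2.02 points by arm and -2.64 to 1.07 by day. Of single genes, Cd177 by day (-0.015 to 0.185), Pglyrp1 by day (-0.052 to 0.259) and Mmp8 by arm (-0.048 to 0.041) turned without a library, none of them called, and the hour calls of the 63 named genes kept their direction. The cause of these changes was not tested. The labels give no replicate numbers, and the 3 matched pairs of TOE and TO as a block (6 libraries, edgeR, 12688 genes) called 0 genes by arm, with 734 at an unadjusted p under 0.05. With 1 library per condition, low genes and small shares are limited by counting error.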
